A study of Mus musculus with 11 samples.

Results

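NRF2, the product of Nfe2l2, is a transcription factor that raises the expression of enzymes that detoxify quinones, make and recycle glutathione, and restore oxidized thiols. In unstressed cells KEAP1 binds NRF2 and hands it to a CUL3 ubiquitin ligase for degradation, and oxidants or electrophiles that modify KEAP1 let NRF2 build up and bind antioxidant response elements together with a small MAF protein. In liver, the pathway is known for its part in the response to drugs, dietary fat and inflammation.

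The genes described here are Nfe2l2, its inhibitor Keap1 and 8 antioxidant enzymes (Nqo1, Gclc, Gclm, Gsr, Txnrd1, Srxn1, Cat and Sod2), chosen by name, and all 10 had a row among the 13636 genes of the liver RNA-seq table. Cat and Sod2 remove reactive oxygen species themselves and are less strictly tied to NRF2 than the others. All livers came from male C57BL/6J mice, an inbred laboratory strain, that ate a Western diet from 8 weeks of age. After a month on it they were injected for 6 weeks with a mimic of the microRNA miR-30c, with a scramble oligomer, or with PBS. Either oligomer was given in rising doses, first 2.5 mg/kg, then 5.0 mg/kg and last 7.5 mg/kg. There were 4 mimic, 3 scramble and 4 PBS libraries. Whether each library is a mouse of its own is not stated in the labels, and the p-values below therefore speak of the spread among libraries only.

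Levels below are in scaled CPM, the deposited unit, which is proportional to reads relative to an adjusted library size. A log2 change is a difference of mean log2(value + 1), which for weakly expressed genes is smaller than the true fold, and a gene was called at an adjusted p under 0.05 in limma, adjusted over all 13636 genes. Counts per library, summed over the table and given in units of 1e6, were 39.7 to 60.4 in mimic, 74.5 to 88.9 in scramble and 62.8 to 101 in PBS libraries. The 4 mimic libraries were not alike. The 19 rows of Mup genes, abundant secreted proteins of male mouse liver, took 12.5, 34.8, 41.3 and 11.6% of the counts in mimic replicates 1 to 4, against 37.9 to 52.9% in the scramble and PBS libraries. The 4 rows of Saa genes, acute phase proteins, took 2.61, 0.699, 0.720 and 2.05% in the same mimic replicates and 0.0101 to 0.0211% in the scramble and PBS libraries. Mimic replicates 1 and 4 thus stood apart from mimic replicates 2 and 3, and values without them are given for the results that depend on them. In bulk liver, fewer cells of a type and less RNA per cell cannot be told apart.

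Because a miR-30c mimic was injected, the mature microRNA is shown first with the seed-matched stretches that the 10 genes hold. The sequence of mouse miR-30c-5p, 5′ to 3′, is credited to RefSeq (GRCm38.p6), and its seed, bases 2 to 8, is in capitals.
miR-30c-5p: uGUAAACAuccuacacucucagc
The longest annotated 3′ UTR held the 7-base match to this seed in 3 of the 10 genes, Gclc, Gclm and Sod2, and the other 7 had none. Among all measured genes with an annotated 3′ UTR, 1834 of 11456 (16.01%) held it. The match is in capitals in these transcript-strand stretches (GENCODE M21, GRCm38) from the 3′ UTRs of Gclc (chr9:77793583-77793611, plus strand), Gclm (chr3:122268718-122268746, plus strand) and Sod2 (chr17:13018603-13018631, plus strand).
Gclc: agagtttcaaaTGTTTACtgtaaatcttc
Gclm: ttcattcctcgTGTTTACcttaaattcca
Sod2: gtttgtttgttTGTTTACtctcactgtgt
The Gclm and Sod2 3′ UTRs, of 4335 and 4963 bases, were the longest of the 10, against a median of 1166 bases over all genes searched. None of the 3 genes with a match was called in mimic against scramble or in mimic against PBS, as described for each below.

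The promoters were read for the antioxidant response element, the sequence NRF2 binds, to show which of these genes hold its core near the start site. Promoters, 250 bases before to 50 after a start, were found in RefSeq (GRCm38.p6) for 8 of the 10 genes, all but Gclc and Gsr. The core TGACNNNGC, searched on both strands, was in the promoters of 4 genes, Nfe2l2, Gclm, Txnrd1 and Srxn1, that is at 4 of the 10 promoters of those 8 genes, with a match in 1 of the 3 Txnrd1 promoters. Of all 32851 promoters, 12.4% held it, and of the 12071 promoters of measured genes, 14.2%. The core is in capitals in the stretches of Nfe2l2 (chr2:75704885-75704913, minus strand), Gclm (chr3:122245413-122245441, minus strand), Txnrd1 (chr10:82859104-82859132, minus strand) and Srxn1 (chr2:152105542-152105570, minus strand).
Nfe2l2: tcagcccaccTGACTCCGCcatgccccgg
Gclm: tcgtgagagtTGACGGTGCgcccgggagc
Txnrd1: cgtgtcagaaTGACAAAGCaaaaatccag
Srxn1: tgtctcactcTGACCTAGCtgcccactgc
The looser core TGANNNNGC, which contains the first, was in 41.3% of all promoters and in 42.6% of those of measured genes. Counted by gene and not by promoter, it was found for 5 of the genes, the same 4 and Keap1. Srxn1 had 4 such matches, of which this one (chr2:152105469-152105497, plus strand) is centred 41 bases before the start site.
Srxn1, looser core: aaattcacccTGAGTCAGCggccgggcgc
The promoters of Nqo1, Cat and Sod2 held neither core in these windows. Of the genes called below, Srxn1 thus held a core in its promoter window, while Nqo1 and Cat did not. A match is a run of letters and was not tested as a binding site.

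In mimic against scramble livers, 3 of the 10 genes changed: the quinone reductase Nqo1 and the sulfiredoxin Srxn1 rose, and catalase, Cat, fell. That is 30.0% of the genes, where 32.0% of all genes passed the same test, so the share was close to the background. In mimic against PBS livers, 2 of 10 changed, Nqo1 upward and Cat downward, where 37.1% of all genes passed. The median log2 change of the 10 genes was -0.03 against scramble and 0.02 against PBS, with 0.00 over all genes in either comparison. Values of mimic and scramble libraries did not overlap for 6 of the 10 genes, where 40.8% of all genes did not, and those of mimic and PBS libraries did not overlap for 3 of 10, where 31.7% of all genes did not. The mimic libraries are shared by the 2 comparisons, so their changes are not independent of each other.

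**Figure D1:**
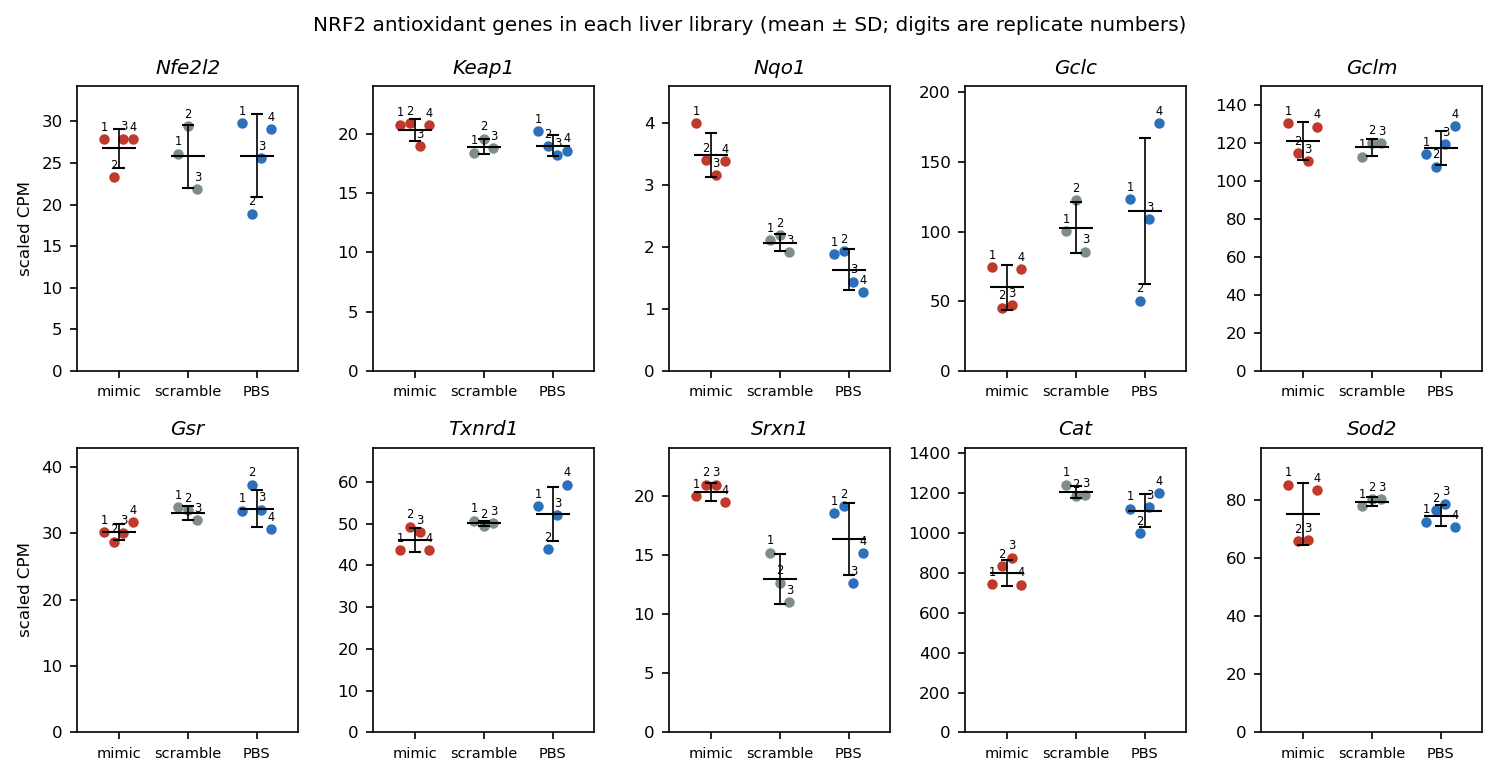
Scaled CPM (vertical axes, starting at 0) of each of the 10 genes in each library, with groups from left to right mimic, scramble and PBS. The points are single libraries marked with their replicate number and the black lines are group means with their SD. Nqo1 and Srxn1 lie higher and Cat lies lower in the mimic libraries, and PBS replicate 2 is the lowest PBS library for Gclc, Nfe2l2 and Txnrd1.

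The mRNAs of the sensor pair, NRF2 and KEAP1, were measured at close levels in all groups on the deposited scale. Nfe2l2 had 27.8, 23.3, 27.9 and 27.9 scaled CPM in the mimic libraries, 26.1, 29.4 and 21.8 in the scramble libraries, and 29.8, 18.9, 25.6 and 29.1 in the PBS libraries. The groups overlapped throughout, and the widest spread was among the PBS libraries, where replicate 2 was lowest. The log2 change was 0.06 ± 0.15 (SE, adjusted p = 0.80, 95% interval -0.27 to 0.38) against scramble and 0.06 ± 0.14 (adjusted p = 0.74) against PBS. Nfe2l2 mRNA does not report the amount of NRF2 protein, which KEAP1 controls by degradation.

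Keap1, the inhibitor, had 20.7, 20.9, 18.95 and 20.7 scaled CPM in the mimic libraries, 18.4, 19.6 and 18.8 in the scramble libraries, and 20.2, 18.97, 18.2 and 18.6 in the PBS libraries. Mimic replicate 3 lay among the other groups and the other mimic libraries lay above all of them. Its log2 change was 0.10 ± 0.07 (adjusted p = 0.26) against scramble and 0.09 ± 0.06 (adjusted p = 0.24) against PBS. Keap1 shares 206 exon bases with Gm16754 on the opposite strand. The library kit keeps strand, but the sources used here do not say whether counting used it.

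Nqo1, an NADPH-using quinone reductase and a standard readout of NRF2 activity, rose in mimic livers. It had 3.999, 3.41, 3.16 and 3.39 scaled CPM in the mimic libraries, 2.11, 2.19 and 1.92 in the scramble libraries, and 1.88, 1.94, 1.44 and 1.27 in the PBS libraries. Every mimic library lay above every scramble and PBS library, with the highest value in mimic replicate 1. The log2 change was 0.54 ± 0.10 (adjusted p = 0.0029) against scramble and 0.77 ± 0.10 (adjusted p = 0.00019) against PBS. Without mimic replicates 1 and 4 it was 0.48 against scramble and 0.71 against PBS, still called. Nqo1 was a low gene, with 79 to 297 counts per library, and lies on chromosome 8 (107388225 to 107403206, minus strand, GRCm38).

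Gclc and Gclm encode the catalytic and the modifier subunit of glutamate-cysteine ligase, the rate-limiting step of glutathione synthesis. Gclc had 74.3, 45.5, 46.9 and 73.0 scaled CPM in the mimic libraries, 100.4, 122 and 85.7 in the scramble libraries, and 123, 50.3, 109 and 178 in the PBS libraries. All mimic libraries lay below all scramble libraries, but PBS replicate 2 fell between the lower and the higher mimic libraries, and mimic replicates 2 and 3 lay well below mimic replicates 1 and 4. The mean was 59.9 ± 15.8 (SD, n = 4) in mimic, 103 ± 18.5 (n = 3) in scramble and 115 ± 52.4 (n = 4) in PBS livers. In limma the log2 change was -0.79 ± 0.34 (adjusted p = 0.098, 95% interval -1.54 to -0.04) against scramble and -0.83 ± 0.32 (adjusted p = 0.059) against PBS, so Gclc was not called. Without PBS replicate 2 it was called against PBS (-1.18, adjusted p = 0.0020) and against scramble (adjusted p = 0.018). The SD of log2 Gclc among PBS libraries, 0.76, exceeded that of 99.2% of all genes.

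Gclm had 131, 115, 111 and 129 scaled CPM in the mimic libraries, 113, 120.2 and 120.1 in the scramble libraries, and 114, 108, 119 and 129 in the PBS libraries. As for Gclc, mimic replicates 1 and 4 were the higher mimic libraries and PBS replicate 2 was the lowest and PBS replicate 4 the highest of the PBS group, but for Gclm all groups overlapped. Its log2 change was 0.04 against scramble (adjusted p = 0.77) and 0.04 against PBS (adjusted p = 0.71).

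Among the recycling enzymes, Srxn1, the sulfiredoxin that repairs over-oxidized peroxiredoxins, rose against scramble. Srxn1 had 20.01, 20.96, 20.97 and 19.5 scaled CPM in the mimic libraries, 15.2, 12.7 and 11.05 in the scramble libraries, and 18.6, 19.2, 12.7 and 15.2 in the PBS libraries. The mimic libraries were closely grouped and lay above all others, with PBS replicate 2 just under the lowest of them. In limma the log2 change was 0.62 ± 0.14 (adjusted p = 0.0056) against scramble and 0.31 ± 0.13 (adjusted p = 0.069) against PBS. The difference between these comparisons is the change of scramble against PBS, which was -0.31 (adjusted p = 0.99974). Without PBS replicate 2 the change against PBS was called (0.39, adjusted p = 0.029). Srxn1 lies on chromosome 2 (152105516 to 152111376, plus strand, GRCm38).

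Gsr, glutathione reductase, had 30.2, 28.7, 30.1 and 31.7 scaled CPM in the mimic libraries, 33.9, 33.5 and 31.9 in the scramble libraries, and 33.4, 37.3, 33.6 and 30.6 in the PBS libraries. The mimic libraries lay below all scramble libraries by a narrow gap and overlapped the PBS libraries through PBS replicate 4. The log2 change was -0.13 ± 0.07 (adjusted p = 0.20) against scramble and -0.15 (adjusted p = 0.10) against PBS.

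Txnrd1, the cytosolic thioredoxin reductase, had 43.7, 49.2, 48.0 and 43.6 scaled CPM in the mimic libraries, 50.7, 49.4 and 50.1 in the scramble libraries, and 54.2, 43.9, 52.0 and 59.3 in the PBS libraries. Here mimic replicates 1 and 4 were the lower ones, and PBS replicate 2 was the only PBS library among the mimic values. Its log2 change was -0.12 ± 0.10 (adjusted p = 0.36) against scramble and -0.17 ± 0.09 (adjusted p = 0.14) against PBS. Without PBS replicate 2 the change against PBS was -0.25, which was called (adjusted p = 0.018).

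Cat, the peroxisomal enzyme that breaks down hydrogen peroxide, fell in mimic livers. It had 745, 835, 876 and 741 scaled CPM in the mimic libraries, 1242, 1184 and 1191 in the scramble libraries, and 1122, 999, 1130.4 and 1198 in the PBS libraries. Every mimic library lay below every scramble and PBS library, with mimic replicates 1 and 4 lowest and PBS replicate 2 the lowest of the PBS group. The mean was 799 ± 67.0 (SD, n = 4) in mimic, 1206 ± 31.6 (n = 3) in scramble and 1112 ± 82.8 (n = 4) in PBS livers. The log2 change was -0.60 ± 0.11 (adjusted p = 0.0022) against scramble and -0.48 ± 0.10 (adjusted p = 0.0042) against PBS, and without mimic replicates 1 and 4 it was -0.50 and -0.38, still called. Cat lies on chromosome 2 (103453849 to 103485160, minus strand, GRCm38). The summed level of 11 hepatocyte marker genes was also lower, at 33199 to 38631 in mimic libraries, 40161 to 44453 in scramble libraries and 39550 to 45040 in PBS libraries. That sum is carried by a few abundant genes: against scramble 1 of the 11 markers was called higher and 0 lower, and against PBS 2 were higher and 2 lower. Of all genes, 17.3% were called higher and 14.7% lower against scramble, and 20.0% and 17.1% against PBS. The part of hepatocyte RNA in the Cat result was not tested.

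Sod2, the mitochondrial superoxide dismutase, had 85.4, 65.9, 66.3 and 83.5 scaled CPM in the mimic libraries, 77.9, 80.5 and 80.3 in the scramble libraries, and 72.6, 76.7, 78.8 and 70.8 in the PBS libraries. Mimic replicates 1 and 4 lay above every other library and mimic replicates 2 and 3 lay below every other library, so the mimic group spanned the rest. In limma the log2 change was -0.09 against scramble (adjusted p = 0.52) and 0.00 against PBS (adjusted p = 0.99). Without mimic replicates 1 and 4 it was -0.26 against scramble (adjusted p = 0.042).

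**Figure D2:**
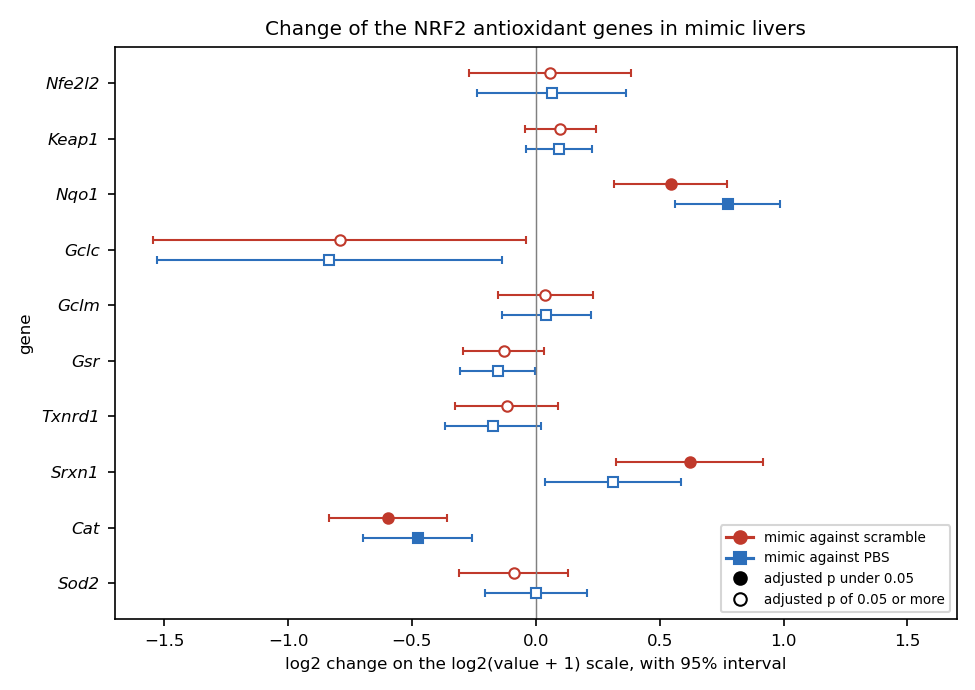
Log2 change (horizontal axis) of each of the 10 genes with its 95% interval, for mimic against scramble (circles) and mimic against PBS (squares). Filled symbols are called changes: Nqo1 (0.54), Srxn1 (0.62) and Cat (-0.60) against scramble, and Nqo1 (0.77) and Cat (-0.48) against PBS, while the Gclc intervals are the widest and their symbols are open.

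Scramble and PBS livers were compared as the check on the oligomer itself. None of the 10 genes was called in limma, where 0% of all genes were, and the largest differences were -0.31 for Srxn1 and 0.23 for Nqo1. At an unadjusted p under 0.05 there were 2 of the 10 genes, and 434 of all genes (3.18%). The values of scramble and PBS libraries overlapped for all 10 genes, where 4.72% of all genes did not overlap.

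The direction of Cat depended on the scaling between libraries. When libraries were divided by their totals alone, the median of all genes shifted by 0.49 in mimic against scramble, by 0.51 in mimic against PBS and by 0.02 in scramble against PBS. On that scale Cat had a log2 change of -0.01 against scramble and 0.13 against PBS, neither called, which is -0.50 and -0.37 relative to the median of all genes. Nqo1 and Srxn1 were higher in mimic livers under each of the 4 scalings, Nqo1 by 0.99 against scramble and 1.22 against PBS when divided by totals, and Srxn1 by 1.18 and 0.89. With totals, limma also called Keap1 higher against scramble (0.66, adjusted p = 0.037) and PBS (0.68, adjusted p = 0.018), 0.17 above the median of all genes in either. Against PBS it called Nfe2l2 (0.65), Gclm (0.65) and Sod2 (0.60) higher too, 0.15, 0.14 and 0.098 above that median.

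**Figure D3:**
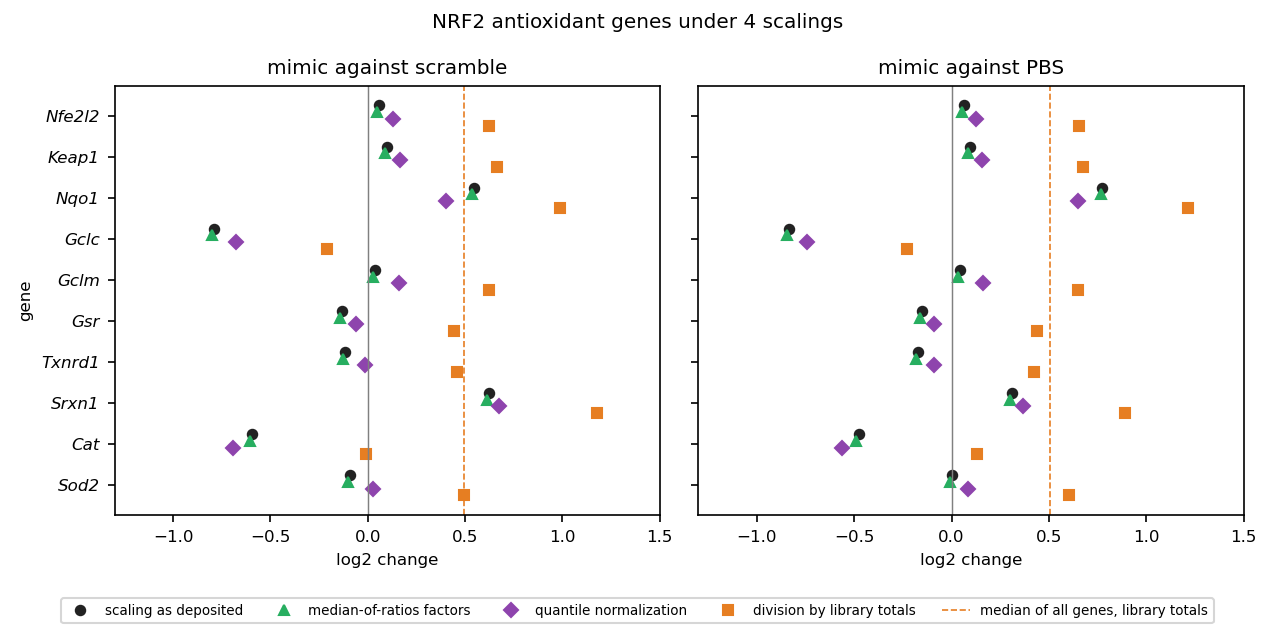
Log2 change of the 10 genes in mimic against scramble (left) and mimic against PBS (right) under 4 scalings, with the median of all genes under division by library totals as a dashed line. Division by totals moves every gene to the right with the dashed line at 0.49 and 0.51, and Cat and Gclc lie furthest to the left of it.

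Per kilobase of exon, which allows levels to be compared between genes, Cat stood far above the rest, at 306 scaled CPM per kb in mimic, 462 in scramble and 426 in PBS livers. Lengths were those of the merged exons of all protein-coding transcripts of a gene, 5977 bases for Sod2 and 5906 for Gclm. Which transcripts the livers expressed is not known here, and a gene expressed mainly as a shorter one is placed too low. Gclc came next in scramble livers, at 30.0 ± 5.41 (SD, n = 3) against 19.9 ± 0.722 for Gclm. In PBS livers Gclc averaged 33.6 ± 15.3 (n = 4) and Gclm 19.9 ± 1.53, a gap within the spread of Gclc, which was the lower of the pair in PBS replicate 2. In mimic livers Gclm averaged 20.5 ± 1.68 and Gclc 17.5 ± 4.63 scaled CPM per kb (SD, n = 4), a difference within the spread of Gclc. Sod2, Txnrd1, Gsr and Nfe2l2 lay close together, between 10.8 and 12.6 in mimic livers, and neighbours in that order did not differ beyond their spread. Srxn1 followed at 7.24 in mimic, 4.62 in scramble and 5.83 in PBS livers. Keap1 lay below Srxn1 in mimic livers, at 4.52 ± 0.205, while in scramble livers its 4.202 ± 0.135 was within the spread of Srxn1 (0.747). Nqo1 was lowest in each group, at 2.25 in mimic, 1.33 in scramble and 1.05 in PBS livers.

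The wider pathway was described with 4 lists, of which the named genes are the called ones with the smallest p against scramble. Among 17 measured partners and regulators of NRF2, 4 rose, 4 fell and 9 did not pass against scramble, and 2 rose and 4 fell against PBS. The shares of all genes that rose were 17.3% against scramble and 20.0% against PBS, and those that fell were 14.7% and 17.1%. The median log2 change of the list was -0.19 against scramble. Without mimic replicates 1 and 4, 1 rose and 5 fell against scramble, where 971 of all 13636 genes fell. Bach1, the repressor that competes with NRF2 for its sites, fell, at 21.9 scaled CPM in mimic, 42.3 in scramble and 43.1 in PBS livers (log2 change -0.92 and -0.93). Maff, a small MAF partner, was lower at 5.66 in mimic, 26.5 in scramble and 21.5 in PBS livers (-2.04 and -1.69). Bach2 fell as well (-1.09 and -0.94). Cul3, the ligase scaffold that KEAP1 uses, fell by 0.42 against scramble. With library totals its change was 0.15, which is -0.35 relative to the median of all genes. Dpp3, which binds KEAP1, rose (0.37 against scramble). Sqstm1, the p62 autophagy receptor, the MAF partner Mafk and Btrc, a substrate receptor of another ubiquitin ligase, had changes of 0.32, 0.27 and 0.19 that were called against scramble but lost the call without mimic replicates 1 and 4 (adjusted p = 0.18, 0.091 and 0.090). Those calls were also lost on leaving out single libraries, in 5 cases for Sqstm1, 5 for Mafk and 8 for Btrc.

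Among 37 measured other known NRF2 targets, 10 rose, 6 fell and 21 did not pass against scramble, and 13 rose and 6 fell against PBS. Of all genes, 17.3% rose and 14.7% fell against scramble, and 20.0% rose and 17.1% fell against PBS. Without mimic replicates 1 and 4, 5 rose and 4 fell against scramble and 8 rose and 4 fell against PBS. At that setting, 971 of all genes fell against scramble, and 1752 rose and 1142 fell against PBS. Pgd, an NADPH-producing enzyme of the pentose phosphate pathway, averaged 14.5 scaled CPM in mimic, 6.73 in scramble and 6.54 in PBS livers (log2 change 0.99 and 1.02). G6pdx, which starts that pathway, averaged 3.60 in mimic, 2.02 in scramble and 2.16 in PBS livers (0.61 and 0.54). Ptgr1 (0.82) and the exporter Abcc1 (0.68) are also among the 10 called higher against scramble. In the scramble and PBS libraries they were at most 0.647 (Ptgr1) and 0.990 (Abcc1) scaled CPM. Both passed the filter only through the mimic libraries, so they could have a row only as higher genes. In the other direction, Me1, another NADPH source, averaged 14.1 in mimic, 26.3 in scramble and 28.3 in PBS livers (-0.87 against scramble, -0.999 against PBS), and lost its call against scramble without scramble replicate 1 (-0.74, adjusted p = 0.062). Ugt1a6a, which conjugates toxic compounds, fell against scramble (-0.84). Gsta4, a glutathione S-transferase, had a change of -0.84 against scramble that was called, but not without mimic replicates 1 and 4 (-0.70, adjusted p = 0.11) or without scramble replicate 2 (adjusted p = 0.067). Fech, the last enzyme of haem synthesis, fell against scramble (-0.50). With library totals its change was 0.08, which is -0.41 relative to the median of all genes.

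Of 31 other measured glutathione, thioredoxin and peroxide genes, 4 rose, 5 fell and 22 did not pass against scramble, and 6 rose and 3 fell against PBS. These counts are near the shares of all genes given above, 17.3% higher and 14.7% lower against scramble. Against scramble, 2 rose and 4 fell without mimic replicates 1 and 4, where 971 of all 13636 genes fell. Msrb3 (0.71), a methionine sulfoxide reductase, and Gpx3 (1.06), a secreted glutathione peroxidase, rose against scramble. Sod3, the extracellular superoxide dismutase, and Ggct had changes of 0.64 and 0.42 against scramble that were called, but not without mimic replicates 1 and 4 (adjusted p = 0.099 and 0.21). Leaving out single libraries ended the Sod3 call in 3 cases and the Ggct call in 7. Txnip, which binds and inhibits thioredoxin, fell, at 58.4 scaled CPM in mimic, 123 in scramble and 131 in PBS livers (-1.03 and -1.17), and lost its call against scramble without scramble replicate 1 (-0.79, adjusted p = 0.061). Sod1, the cytosolic counterpart of Sod2, fell by 0.36 against scramble and by 0.27 against PBS. With library totals its changes were 0.22 and 0.34, which are -0.27 and -0.17 relative to the median of all genes, and the call against PBS was lost without mimic replicates 1 and 4 (adjusted p = 0.11). That call was also lost on leaving out single libraries in 3 cases. With quantile normalization Sod1 was called in neither comparison (adjusted p in limma = 0.068 against scramble and 0.26 against PBS). Msra and Glo1 had called changes of -0.29 and -0.50 against scramble, and with library totals 0.28 and 0.08, which are -0.21 and -0.41 relative to the median of all genes. Msra was not called without mimic replicates 1 and 4 (adjusted p = 0.11), and leaving out single libraries ended the call in 3 cases for Msra and 5 for Glo1.

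Of 15 measured oxidant-producing enzymes, 6 rose, 5 fell and 4 did not pass, in either comparison, where 32.0% of all genes passed against scramble and 37.1% against PBS. In either comparison 6 rose and 3 fell without mimic replicates 1 and 4. At that setting, 971 of all 13636 genes fell against scramble, and 1752 rose and 1142 fell against PBS. Those that rose included phagocyte NADPH oxidase subunits and their regulator: Cyba (1.72 against scramble and 1.49 against PBS), Ncf4 (1.04 against scramble) and Rac2 (1.03 against scramble). Ncf4, one of the 6, had 0.519 to 0.871 scaled CPM in scramble and 0.549 to 1.64 in PBS libraries. It passed the filter only through the mimic libraries, so it could have a row only as a higher gene. Cyba averaged 9.53 scaled CPM in mimic, 2.19 in scramble and 2.92 in PBS livers. Those that fell included Hao1, a peroxisomal oxidase of glycolate, at 64.7 in mimic, 122 in scramble and 128 in PBS livers (-0.95 against scramble). Nox4, an NADPH oxidase, had called changes of -0.91 against scramble and -0.80 against PBS, and neither was called without mimic replicates 1 and 4 (-0.73, adjusted p = 0.062, and -0.62, adjusted p = 0.079). Maob fell by 0.45 against scramble, and with library totals its change was 0.13, which is -0.36 relative to the median of all genes. With library totals, 0 of these enzymes were called lower, where 110 of all 13636 genes were against scramble and 120 against PBS. Among the named genes of the 4 lists that fell, Maff alone was still called lower at that setting.

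Beside these subunits, markers of phagocytes were higher too. For the counts that follow, 17.3% of all genes rose and 14.7% fell against scramble. All 10 markers of lipid-associated and recruited macrophages rose against scramble, with summed levels of 190 to 258 scaled CPM in mimic, 41.9 to 49.9 in scramble and 30.7 to 75.4 in PBS libraries. All 5 measured neutrophil markers of the 11 listed rose, with sums of 16.2 to 35.6 in mimic, 1.17 to 1.77 in scramble and 1.65 to 2.66 in PBS libraries. With sums that low in scramble and PBS livers, the filter could keep some of these markers only through the mimic libraries. That all 5 rose thus follows at least in part from which markers had a row. Resident Kupffer cell markers did not follow, with 2 of 11 higher and 5 lower against scramble, and stellate cell markers rose in 7 of 10. The part of these cells in the oxidase subunits, and in Nqo1 and Srxn1, was not tested.

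**Figure D4:**
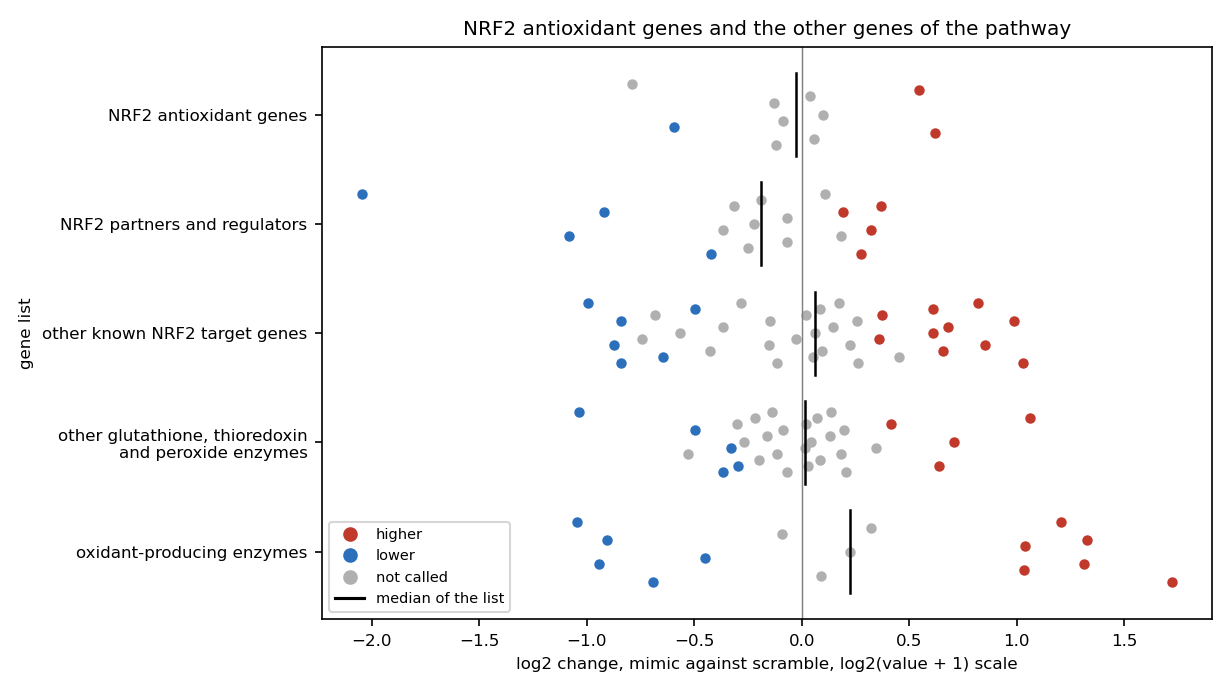
Log2 change in mimic against scramble of every measured gene of the 4 pathway lists and of the 10 genes, 1 point per gene, with called genes marked and the list medians drawn. The partners and regulators have a median of -0.19, and the oxidant-producing enzymes (0.23) run from Cyba at 1.72 on the right to genes near Hao1 at -0.95 on the left.

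The genes most like a member in their values over the 11 libraries were found from the root-mean-square difference of centred log2 values. For Nqo1 these were Trim14 (0.0945), Lpin3 (0.0958) and Copz2 (0.0958), among 6431 genes searched. Trim14 averaged 30.0 scaled CPM in mimic, 20.2 in scramble and 18.3 in PBS livers. That it shares the order of groups with Nqo1 follows from how it was picked. For Txnrd1, which varied less than the median gene, the nearest of 6432 searched were Atg2b (0.0834), Wwc2 (0.0846) and Cyp1a1 (0.0847). Genes that varied as little as Txnrd1 were not searched, so these need not be the nearest of the whole table. Cyp1a1 was also a low gene, at 0.684 scaled CPM in mimic, 0.858 in scramble and 0.953 in PBS livers.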

How the data were processed

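Per the labels' protocols, RNA from frozen liver was made into stranded mRNA libraries and sequenced in pairs. The build was mm10 and the tools included edgeR 3.8.6, bedtools 2.17.0 and Bowtie, per the submitters' processing notes. The gene annotation and the counting are not given in the sources used here. The deposited values are a scaled signal (scaled CPM) of 13636 genes in 11 libraries. Columns sum to more than plain CPM can in 6 libraries, and every value is a whole multiple of a single step per library (tolerance 1e-06), taken here as a count. The design had assumed normalized values, and the scaled signal was tested as planned.

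Groups came from the titles. For the tests, log2(value + 1) was fitted in R 4.3.3 with limma 3.58.1. The fit had 3 group means over all libraries and a mean-variance trend, and p-values were Benjamini-Hochberg adjusted over the whole table. The script was checked on simulated data first. RNA integrity numbers of 8.4 to 9.2 are given for 7 libraries. Between libraries of a group, counts differed beyond sampling noise (chi-square per degree of freedom at least 61.0). Up to 4 called genes per direction were named from each pathway list. A few genes that this rule takes are not reported here. The 10 genes, the lists and the alternatives were chosen with earlier results of these data known, and the lists were written from general knowledge. UTRs and exon lengths came from GENCODE M21, other sequences from RefSeq (GRCm38.p6).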

Additional observations from a re-analysis of the deposited data

Results flagged for a closer look

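Of 20 groups of 4 libraries examined (the 10 genes in the mimic and the PBS groups), 2 held a library far from the other 3 by Dixon's criterion, and chance flags about 1 in 20 groups. Nfe2l2 was 23.3 scaled CPM in mimic replicate 2, below the other mimic libraries, with a gap of 0.979 of the group's range. Keap1 was 18.95 scaled CPM in mimic replicate 3, below the other mimic libraries, with a gap of 0.921 of the range.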

How the results depend on the processing

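Each result was recomputed under 21 alternatives for mimic against scramble and against PBS and 20 for scramble against PBS. The planned tests with edgeR and DESeq2 and the TMM factors were not run. Nqo1 was higher and called in mimic livers in every alternative that kept it, at 0.40 to 0.99 against scramble and 0.65 to 1.22 against PBS, and Srxn1 was called against scramble in every alternative (0.52 to 1.18). With library totals, changes turned positive for Cat against PBS (0.13), Cul3 (0.15 and 0.22 against scramble and PBS), Fech (0.082 and 0.15), Glo1 (0.084 and 0.041), Maob (0.13 and 0.26), Sod1 (0.22 and 0.34) and Msra against scramble (0.28). Each of these stayed below the shifted median of all genes. Changes that had not been called also turned positive, for Gsr (0.44 in either comparison), Txnrd1 (0.46 and 0.43) and Sod2 against scramble (0.49).

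Of the 10 genes, the number higher against PBS (1) was 0 when genes under a mean of 5 were dropped, Nqo1 with them, 6 with library totals, 2 with quantile normalization and 2 with library weights. The number lower against PBS (1) was 0 with totals, 2 with the replicate block and 3 with library weights. Against scramble, the number higher (2) was 1 with a mean of at least 5, and the number lower (1) was 0 with totals and 2 with the replicate block, with the compared groups alone and without mimic replicates 1 and 4. Leaving out single libraries gave 1 to 2 higher and 1 to 3 lower against PBS, 2 to 2 higher and 1 to 2 lower against scramble, and 0 to 0 for scramble against PBS, with PBS replicate 2 behind each departure.

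Over all genes, 2733 were higher against PBS, and 1313 with a mean of at least 5, 6882 with totals, 1752 without mimic replicates 1 and 4, and 2120 to 2994 without single libraries. Lower against PBS were 2326, and 120, 1142 and 1631 to 2687 with totals, without those mimic replicates and without single libraries. Against scramble, 2363 were higher (1059 with a mean of at least 5, 5498 with totals, 1659 to 2599 without single libraries) and 2000 lower (110 with totals, 971 without those mimic replicates, 1165 without scramble replicate 1, 1303 without scramble replicate 3, up to 2305). For scramble against PBS, the compared groups alone gave 5 higher genes where 0 were called, and single libraries 0 to 1 higher and 0 to 0 lower.

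The labels give no pairing of replicate numbers. Deviations of the 10 same-numbered pairs correlated at -0.28 to 0.26, and those of differently numbered pairs at -0.40 to 0.35. The pairs of replicate 3 were all positive (0.23, 0.26 and 0.12), and so few pairs cannot exclude a pairing. With the replicate block, Gclc was called lower against scramble (-0.97, adjusted p = 0.034) and against PBS (-0.83, adjusted p = 0.034). Few libraries per group limit the precision.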

Other observations

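Some glutathione S-transferases of the NRF2 target list, and Hmox1, were chosen for mention after their values were seen, and so were their alternatives. In mimic against scramble livers, the mu class genes Gstm2 (log2 change 1.03, adjusted p = 0.018), Gstm3 (0.85, adjusted p = 0.016) and Gstm4 (0.61, adjusted p = 0.023) were higher, while Gstm1 had a change of -0.03 (adjusted p = 0.92). Gstm3 averaged 3.68 scaled CPM in mimic and 1.52 in scramble livers. These genes are close paralogs, and counting could split their reads. Hmox1, the haem oxygenase that both NRF2 and BACH1 are known to control, averaged 10.4 scaled CPM in mimic, 6.20 in scramble and 6.16 in PBS livers, with a log2 change of 0.66 against scramble (adjusted p = 0.023) and 0.68 against PBS (adjusted p = 0.013). Without mimic replicates 1 and 4, Gstm2, Gstm3, Gstm4 and Hmox1 were not called against scramble (adjusted p = 0.13, 0.097, 0.16 and 0.17), and against PBS Hmox1 was not called either (0.50, adjusted p = 0.13). Leaving out single libraries ended the calls against scramble in 2 cases for Gstm2, 1 for Gstm3, 4 for Gstm4 and 4 for Hmox1.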
